A study of Mus musculus with 15 samples.

Results

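The CC chemokine genes Ccl2, Ccl3, Ccl4, Ccl5, Ccl7 and Ccl20 were followed in RNA sequencing of E0771, a mouse mammary carcinoma cell line. They were taken by symbol, as 6 of the 55571 gene rows of the count table. The cells carried 1 of 4 forms of Malt1 or an empty vector, with 3 libraries in each of 5 groups. The groups were wild-type Malt1 (Malt1_WT), a Malt1 mutant that the labels call PD (Malt1_PD), Malt1 with the substitution V87R (Malt1_V87R), Malt1 with the substitution L88D (Malt1_L88D), and the empty vector (Vector). The columns used for Malt1_PD are headed C461A, a cysteine substitution, and were given to Malt1_PD by elimination, since every other group had columns under its own name or as the control. No treatment is named in the labels, and the series title says that the cells were grown without T cell coculture. The labels give neither the promoter that drives Malt1, nor whether a line is a pool or 1 clone, nor whether replicates are separate cultures. The p-values below therefore measure library-to-library spread, which may be technical.

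MALT1 is a paracaspase. With BCL10 and a CARD-family protein it forms the complex that switches on NF-kB, holding the complex together and also cutting other proteins. V87 and L88 lie in its death domain, through which it contacts BCL10. CC chemokines are small secreted proteins that draw leukocytes through G protein-coupled receptors, and tumour cells can release them. Ccl2 and Ccl7 attract monocytes through CCR2. Ccl3 and Ccl4, the macrophage inflammatory proteins, and Ccl5 attract macrophages, T cells and NK cells, and Ccl3 and Ccl5 bind the receptor CCR1. Ccl20 attracts CCR6-bearing T cells, B cells and dendritic cells. Several of these genes are textbook targets of NF-kB, and their mRNAs are often short-lived, with ATTTA elements in the 3' untranslated region.

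Of the 6 genes, 5 lie on mouse chromosome 11 and Ccl20 lies on chromosome 1, in GRCm38 coordinates of GENCODE M21. Ccl2 (chr11:82035571-82037453, plus strand) and Ccl7 (chr11:82045712-82047525, plus strand) are neighbours, 8.26 kb apart. Ccl5 (chr11:83525778-83530518, minus strand), Ccl3 (chr11:83647844-83649355, minus strand) and Ccl4 (chr11:83662584-83664683, plus strand) lie in a second block of CC genes on the same chromosome. Ccl20 is at chr1:83116766-83119167 on the plus strand. All 6 are protein-coding genes.

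Stretches of the 3' untranslated region that hold the ATTTA element are shown for 4 of the 5 genes that have one, because the element is known from short-lived mRNAs. Capitals mark ATTTA, and adjoining copies run together.
Ccl2: taatattaaacttATTTAacttattgatgt
Ccl7: tattaatatttttATTTAattagccatgta
Ccl3: ttgaaattttATTTAATTTAatcctattgg
Ccl20: aagatATTTAatgttctgtttATTTAattg
These windows are bases 27 to 56 of the 275-base region of Ccl2, 164 to 193 of 435 in Ccl7, 149 to 178 of 409 in Ccl3 and 342 to 371 of 450 in Ccl20. On the RNA strand, ATTTA occurred 5 times in the region of Ccl3, 5 times in that of Ccl20, 2 times each in those of Ccl4 and Ccl7, 1 time in that of Ccl2 and 0 times in the 199 bases of Ccl5. It was present in 62.7% of 20754 such regions. The longer forms ATTTATTTA and TTATTTATT, found in 5.67% and 7.12% of the regions, had 0 matches in the 6 genes.

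The RefSeq promoter table for GRCm38.p6 held entries for 2 of the 6 genes, and the 250 bases before the start are shown for both, since Ccl3 is the gene with the widest range here and Ccl20 the gene with no reads. Capitals mark the NF-kB consensus, searched on both strands.
Ccl3: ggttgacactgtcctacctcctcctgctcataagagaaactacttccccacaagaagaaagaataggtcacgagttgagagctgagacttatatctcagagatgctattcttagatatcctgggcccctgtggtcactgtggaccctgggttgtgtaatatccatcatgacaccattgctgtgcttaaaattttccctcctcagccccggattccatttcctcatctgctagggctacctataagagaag
Ccl20: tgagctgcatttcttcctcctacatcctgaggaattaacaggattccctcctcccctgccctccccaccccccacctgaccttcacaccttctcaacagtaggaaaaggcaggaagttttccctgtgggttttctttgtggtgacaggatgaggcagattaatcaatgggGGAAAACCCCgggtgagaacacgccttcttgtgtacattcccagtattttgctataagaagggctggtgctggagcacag
The Ccl3 stretch is chr11:83649379-83649628 on the minus strand and the Ccl20 stretch chr1:83116516-83116765 on the plus strand. Ccl20 had 1 match to the NF-kB consensus, on the opposite strand, from 80 to 71 bases before the start, and these letters were not in the Ccl3 window. The consensus was found in 7.01% of 27025 promoters of the same length. Of 3 other motifs searched on both strands, TGANTCA (6.87% of promoters) and 2 copies of GAAA set 2 bases apart (3.04%) had no match in either gene. TTNNGNAA, present in 36.9% of promoters, matched in Ccl3 from 100 to 93 bases before the start. A match describes letters and not a bound site.

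Library totals ran from 15471746 to 21458457 counts. Levels are given in CPM, counts per 1e+06 of the library total after correction by TMM factors between 0.973 and 1.02. Malt1, the check of the labels, was at 207.5, 193 and 205.5 CPM with Malt1_WT, 259.7, 247 and 243 CPM with Malt1_PD, 279, 279 and 281 CPM with Malt1_V87R, and 258, 245 and 251 CPM with Malt1_L88D, against 26.4, 30.2 and 27.8 CPM in Vector. All 12 Malt1 libraries were above the 3 Vector libraries, and the mutants were above Malt1_WT. E0771 is of mammary epithelial origin, but 8 of 10 epithelial markers were too low to test, and the 10 summed to between 93.7 and 134 CPM per library. Of 13 T and NK cell markers 1 was tested and 3 were at 0 in every library, and their sum was at most 4.66 CPM. Of 15 macrophage markers 8 were tested and 0 were at 0 throughout, and the L88D libraries differed in their sum, at 36.3, 59.2 and 52.6 CPM.

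Genes were tested with edgeR's quasi-likelihood test on all 15 libraries, and p-values were adjusted by Benjamini-Hochberg over the 14571 genes with enough counts. A gene was called at an adjusted p under 0.05, and ± beside a log2 fold change is its standard error (SE). Ccl20 had too few counts, so 5 of the 6 members were tested. All 5 rose in Malt1_WT and all 5 in Malt1_PD against Vector, where 27.2% and 22.8% of all tested genes were called higher, 54.9% and 44.8% in either direction. In Malt1_V87R and in Malt1_L88D 3 of the 5 rose, Ccl2, Ccl3 and Ccl7, where 7.01% and 8.96% of tested genes were called higher, 11.7% and 17.4% in either direction. The last 2 percentages rest partly on single libraries: without Malt1_V87R replicate 2 the 1706 genes called in Malt1_V87R became 1130, and without Vector replicate 1 the 2534 called in Malt1_L88D became 1545, while 3 members were still called in both. The median log2 fold change of the 5 members was 2.16 with Malt1_WT, 1.67 with Malt1_PD, 0.65 with Malt1_V87R and 0.41 with Malt1_L88D, beside medians of -0.0105, -0.00372, -0.00237 and -0.00576 over all tested genes. These comparisons share the Vector libraries.

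**Figure D1:**
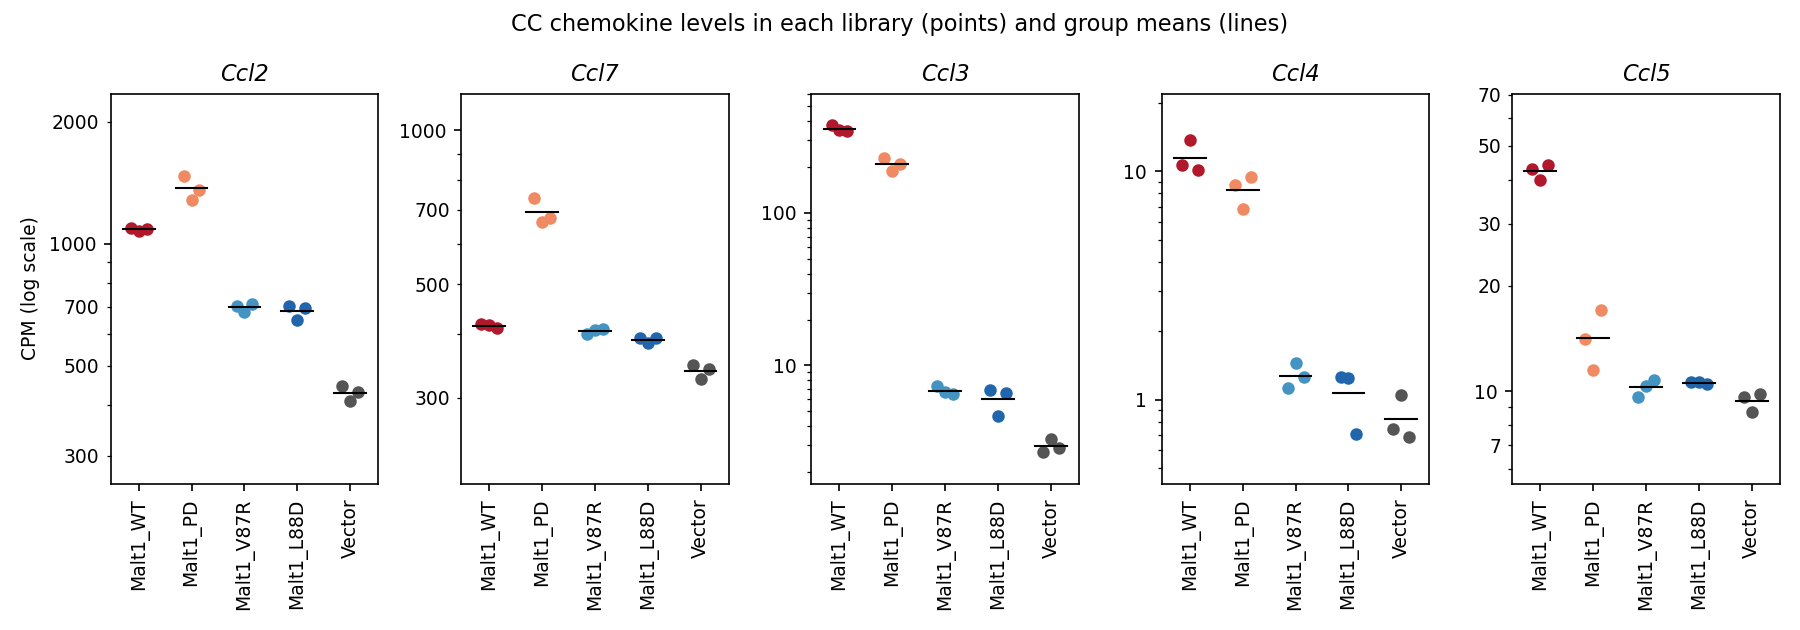
Level of each tested CC chemokine in CPM on a log axis of its own, 1 point per library and a line at the group mean, for the 4 Malt1 groups and Vector. Ccl3 spans from 2.69 CPM in a Vector library to 379 CPM in a Malt1_WT library, whereas all 15 Ccl7 libraries lie between 326 and 738 CPM.

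Ccl2, the main monocyte attractant, was the most abundant member in every group, also per length of transcript. Its level was 1096, 1076 and 1086 CPM with Malt1_WT, 1467, 1281 and 1359 CPM with Malt1_PD, 702, 678 and 712 CPM with Malt1_V87R, and 704, 649 and 693 CPM with Malt1_L88D, against 446, 410.4 and 431 CPM in Vector. The Malt1_PD libraries were the highest and the Vector libraries the lowest, the libraries of Malt1_V87R and Malt1_L88D overlapped each other, and no other groups did. The log2 fold change against Vector was 1.34 ± 0.04 with Malt1_WT (adjusted p = 1.1e-20) and 1.67 ± 0.04 with Malt1_PD (adjusted p = 1.8e-22). It was 0.70 ± 0.04 with Malt1_V87R (adjusted p = 4.1e-13) and 0.67 ± 0.04 with Malt1_L88D (adjusted p = 1.1e-12), so Ccl2 rose in all 4 groups. The model of Gm17268 overlaps Ccl2 on the other strand, and the strand setting of the counting is not given in the sources used here. Gm17268 itself had 0 counts in all 15 libraries. The overlap is of whole gene spans, and whether exons overlap was not checked. Where they do, reads of the 2 genes cannot be told apart if strand was not used.

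Ccl7, which shares the receptor CCR2 and lies beside Ccl2, moved far less except in Malt1_PD. It was at 419, 416 and 411 CPM with Malt1_WT, 738, 663 and 673.5 CPM with Malt1_PD, 399, 407 and 409 CPM with Malt1_V87R, and 392, 384.5 and 392 CPM with Malt1_L88D, against 348, 326 and 342 CPM in Vector. Every Malt1_PD library was above all others and every Vector library below all others, and Malt1_WT, Malt1_V87R and Malt1_L88D lay between 384.5 and 419 CPM. The log2 fold change against Vector was 1.03 ± 0.04 with Malt1_PD (adjusted p = 6.9e-19), 0.29 ± 0.04 with Malt1_WT (adjusted p = 1.9e-07), 0.26 ± 0.04 with Malt1_V87R (adjusted p = 1.6e-05) and 0.20 ± 0.04 with Malt1_L88D (adjusted p = 0.00036).

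Ccl3 had the widest range of the members. Its level was 379, 350.0 and 342 CPM with Malt1_WT, 229, 188 and 209.7 CPM with Malt1_PD, 7.34, 6.69 and 6.46 CPM with Malt1_V87R, and 6.94, 4.66 and 6.62 CPM with Malt1_L88D, against 2.69, 3.31 and 2.89 CPM in Vector. Malt1_WT stood above Malt1_PD, both stood far above the other groups, and both death-domain mutants stood above Vector with no overlap. The Vector values rest on 58, 54 and 59 counts. The log2 fold change against Vector was 6.92 ± 0.11 with Malt1_WT (121-fold, adjusted p = 1.5e-20) and 6.15 ± 0.11 with Malt1_PD (adjusted p = 2.6e-19). In Malt1_V87R it was 1.21 ± 0.17 (2.32-fold, adjusted p = 4.2e-05) and in Malt1_L88D 1.02 ± 0.18 (2.03-fold, adjusted p = 0.00039).

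Ccl4, the close relative that neighbours Ccl3, had the same order of groups at much lower levels. It was at 10.6, 13.7 and 10.1 CPM with Malt1_WT, 8.70, 6.82 and 9.41 CPM with Malt1_PD, 1.12, 1.44 and 1.25 CPM with Malt1_V87R, and 1.26, 1.24 and 0.709 CPM with Malt1_L88D, against 0.743, 1.04 and 0.685 CPM in Vector. Malt1_WT and Malt1_PD did not overlap with each other or with the rest, while Malt1_L88D overlapped with both Malt1_V87R and Vector. The log2 fold change against Vector was 3.82 ± 0.21 with Malt1_WT (adjusted p = 2.4e-15) and 3.36 ± 0.22 with Malt1_PD (adjusted p = 1.4e-13). The values 0.65 with Malt1_V87R (95% interval 0.05 to 1.26, adjusted p = 0.17) and 0.41 with Malt1_L88D (interval -0.24 to 1.06, adjusted p = 0.41) did not pass, with 12 to 31 counts per library in these groups and Vector. For Ccl3, Ccl4, Ccl7, Ccl2 and Ccl5 the copies of ATTTA numbered 5, 2, 2, 1 and 0. Their log2 fold changes with Malt1_WT were 6.92, 3.82, 0.29, 1.34 and 2.16, and a link between the 2 was not tested.

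Ccl5 rose above all in Malt1_WT. It was at 42.9, 39.9 and 44.1 CPM with Malt1_WT, 14.1, 11.5 and 17 CPM with Malt1_PD, 9.64, 10.4 and 10.8 CPM with Malt1_V87R, and 10.6, 10.6 and 10.5 CPM with Malt1_L88D, against 9.61, 8.72 and 9.84 CPM in Vector. Malt1_WT stood apart from all other groups, Malt1_PD stood above the remaining groups, and the Malt1_V87R and Vector libraries overlapped. The log2 fold change against Vector was 2.16 ± 0.10 with Malt1_WT (adjusted p = 2.1e-17) and 0.60 ± 0.11 with Malt1_PD (adjusted p = 3.6e-05). It was 0.12 with Malt1_V87R (interval -0.10 to 0.35, adjusted p = 0.55) and 0.16 with Malt1_L88D (interval -0.07 to 0.39, adjusted p = 0.35), and neither passed.

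Ccl20 had 0 counts in all 15 libraries. A count of 0 allows up to 3 counts, which is between 0.139 and 0.196 CPM in a single library. Over the 3 libraries of a group the limit was 0.0621 CPM with Malt1_WT, 0.0551 CPM with Malt1_PD, 0.0491 CPM with Malt1_V87R and 0.0558 CPM with Malt1_L88D, against 0.0515 CPM in Vector. These limits cover counting error only, and no fold change can be given for Ccl20.

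**Figure D2:**
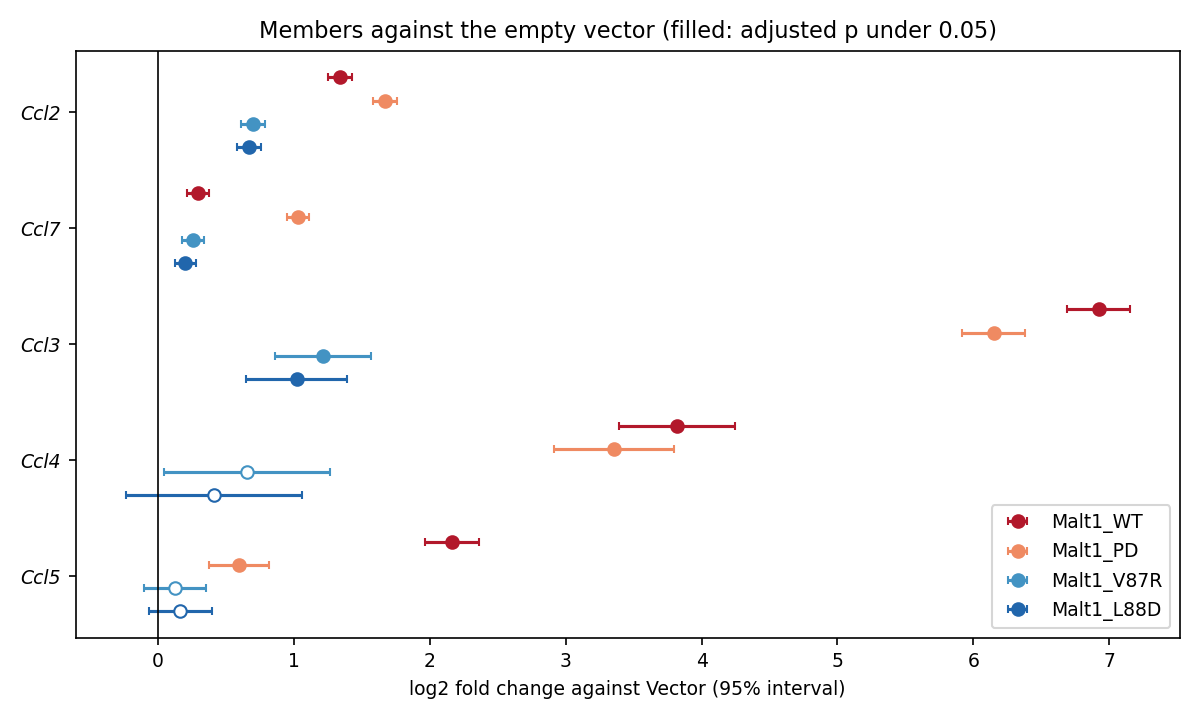
Log2 fold change of each tested member against Vector, with 95% intervals, for Malt1_WT, Malt1_PD, Malt1_V87R and Malt1_L88D; filled points have an adjusted p under 0.05. Ccl2 and Ccl7 are farthest right in Malt1_PD, at 1.67 and 1.03, and Ccl3, Ccl4 and Ccl5 in Malt1_WT, at 6.92, 3.82 and 2.16.

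Ccl2 and Ccl7 were higher, and Ccl3, Ccl4 and Ccl5 lower, in Malt1_PD than in Malt1_WT. Of the 5 tested members, 2 were higher and 3 lower in Malt1_PD, where 12.6% of all tested genes were called higher and 10.7% lower, 23.3% in all. The 3399 genes called in either direction became 4068 without Malt1_PD replicate 2 and 2387 without Malt1_PD replicate 1. Over all genes the split of 1834 higher and 1565 lower became 1365 higher and 1766 lower with upper-quartile scaling, under which the 5 members kept their directions. Ccl2 averaged 1369 ± 93.4 CPM with Malt1_PD and 1086 ± 9.97 CPM with Malt1_WT (SD, n = 3 each), a log2 fold change of 0.33 ± 0.04 (adjusted p = 7.5e-07 in edgeR's test). Ccl7 averaged 691.5 ± 40.6 and 415 ± 3.99 CPM in the same order, higher by 0.74 ± 0.04 (adjusted p = 1.1e-14). In each of these genes all 3 Malt1_PD libraries were above all 3 Malt1_WT libraries, given as a description without the share over all tested genes.

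Among the 3 that were lower, Ccl5 averaged 14.2 ± 2.75 CPM with Malt1_PD and 42.3 ± 2.18 CPM with Malt1_WT (SD, n = 3 each) and fell by 1.57 on the log2 scale (SE 0.09, adjusted p = 1.5e-13 in edgeR's test). Ccl3 averaged 209 ± 20.3 and 357 ± 19.3 CPM in the same order and fell by 0.77 (SE 0.07, adjusted p = 6.7e-08). Ccl4 averaged 8.31 ± 1.34 and 11.5 ± 1.95 CPM and fell by 0.46 (SE 0.14, adjusted p = 0.018). The Ccl4 call was lost without Malt1_WT replicate 2, the highest Ccl4 library (adjusted p = 0.18), without Malt1_PD replicate 2, the lowest Malt1_PD library (adjusted p = 0.076), and with DESeq2 (adjusted p = 0.064). Replicate 2 was the lowest Malt1_PD library for all 5 members.

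Both death-domain mutants were well below Malt1_WT in 4 of the 5 members. Ccl2, Ccl3, Ccl4 and Ccl5 were called lower in Malt1_V87R, where 23.4% of all tested genes were called lower and 48.3% in either direction, and the same 4 genes in Malt1_L88D, where the shares were 22.3% and 45.1%. Ccl3 averaged 6.83 ± 0.457 CPM with Malt1_V87R and 6.07 ± 1.23 CPM with Malt1_L88D, against 357 ± 19.3 CPM with Malt1_WT (SD, n = 3 each). It fell by 5.71 (SE 0.10, adjusted p = 7.2e-20 in edgeR's test) in Malt1_V87R and decreased by 5.90 (SE 0.10, adjusted p = 8.7e-20) in Malt1_L88D. The log2 fold changes were -3.17 and -3.41 for Ccl4 (adjusted p = 2.6e-14 and 2.2e-14), -2.04 and -2.0 for Ccl5 (adjusted p = 7.7e-17 and 2.0e-16), and -0.64 and -0.67 for Ccl2 (adjusted p = 3.1e-13 and 1.2e-13), with Malt1_V87R given before Malt1_L88D. In these 4 genes no library of either mutant reached a Malt1_WT library. The share of all tested genes without such overlap is not given here, so this is a description only.

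Ccl7 was the exception among the 5. It averaged 405 ± 5.35 CPM with Malt1_V87R and 389.7 ± 4.54 CPM with Malt1_L88D, against 415 ± 3.99 CPM with Malt1_WT (SD, n = 3 each). The log2 fold change was -0.04 with Malt1_V87R (interval -0.11 to 0.04, adjusted p = 0.46 in edgeR's test) and -0.09 with Malt1_L88D (interval -0.17 to -0.01, adjusted p = 0.052). The second value lies near the threshold and was called with RLE scaling (adjusted p = 0.031), with DESeq2 (adjusted p = 0.047), with a replicate block (adjusted p = 0.026) and from the 6 libraries compared alone (adjusted p = 0.0046), while its size stayed between -0.11 and -0.09 under all 13 alternatives.

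Against Malt1_PD all 5 members were lower in both death-domain mutants, where 21.1% of tested genes were called lower in Malt1_V87R and 21.4% in Malt1_L88D, 41.5% and 41.4% in either direction. In Malt1_V87R the log2 fold change was -0.77 for Ccl7 (adjusted p = 5.1e-16 in edgeR's test), -0.97 for Ccl2 (adjusted p = 3.3e-17), -4.93 for Ccl3 (adjusted p = 1.1e-18), -2.7 for Ccl4 (adjusted p = 2.2e-12) and -0.47 for Ccl5 (adjusted p = 0.00051). In Malt1_L88D the values were -0.83 for Ccl7, -1.01 for Ccl2, -5.13 for Ccl3, -2.94 for Ccl4 and -0.43 for Ccl5, the last with an adjusted p of 0.0015. Ccl5 was the member with the smallest gap, and the lowest Malt1_PD library, at 11.5 CPM, was still above the highest of the mutants, at 10.8 CPM.

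Malt1_V87R and Malt1_L88D were not told apart by any member. No member was called between them, where 0% of all tested genes were called by edgeR's quasi-likelihood test, and 0 of the 5 had an unadjusted p under 0.05. Over all genes 852 had an unadjusted p under 0.05, and limma-voom and DESeq2 also called 0. With no filter on low counts 5 genes were called, and 25 from the 6 libraries compared alone, with 0 members in both. The log2 differences, Malt1_V87R minus Malt1_L88D, had 95% intervals of -0.05 to 0.12 for Ccl2, -0.02 to 0.13 for Ccl7, -0.11 to 0.50 for Ccl3, -0.34 to 0.83 for Ccl4 and -0.27 to 0.19 for Ccl5. The data therefore bound a difference tightly for Ccl2 and Ccl7 and loosely for Ccl4. Without Malt1_L88D replicate 2 the small Ccl2 difference of 0.03 became -0.0078.

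The members also differed in how their makeup shifted. Summed over the 6 genes, the level was 1912 ± 30.3 CPM with Malt1_WT, 2292 ± 154 CPM with Malt1_PD, 1121 ± 18.3 CPM with Malt1_V87R and 1089 ± 34.8 CPM with Malt1_L88D, against 781 ± 29.1 CPM in Vector (SD, n = 3 each). Ccl2 made up between 54.9% and 62.6% of that sum in every group on average. Ccl7 averaged 21.7% with Malt1_WT, 30.2% with Malt1_PD, 36.2% with Malt1_V87R and 35.8% with Malt1_L88D, against 43.4% in Vector. Ccl3 averaged 18.7% with Malt1_WT, 9.10% with Malt1_PD, 0.610% with Malt1_V87R and 0.555% with Malt1_L88D, against 0.381% in Vector.

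Ratios of 2 members within a library do not depend on its total. Ccl7 counts per Ccl2 count averaged 0.383 ± 0.00424 with Malt1_WT, 0.505 ± 0.0113 with Malt1_PD, 0.581 ± 0.0170 with Malt1_V87R and 0.572 ± 0.0184 with Malt1_L88D, against 0.789 ± 0.00822 in Vector (SD, n = 3 each). Vector libraries were the highest and Malt1_WT libraries the lowest, and only Malt1_V87R and Malt1_L88D overlapped. Ccl3 counts per Ccl4 count averaged 31.7 ± 5.40 with Malt1_WT, 25.4 ± 2.77 with Malt1_PD, 5.45 ± 0.983 with Malt1_V87R and 6.20 ± 2.85 with Malt1_L88D, against 3.67 ± 0.520 in Vector. Malt1_WT and Malt1_PD overlapped in this ratio, and so did Malt1_L88D with Malt1_V87R and with Vector. A changed ratio shows unequal change of the 2 genes and not which of them moved.

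**Figure D3:**
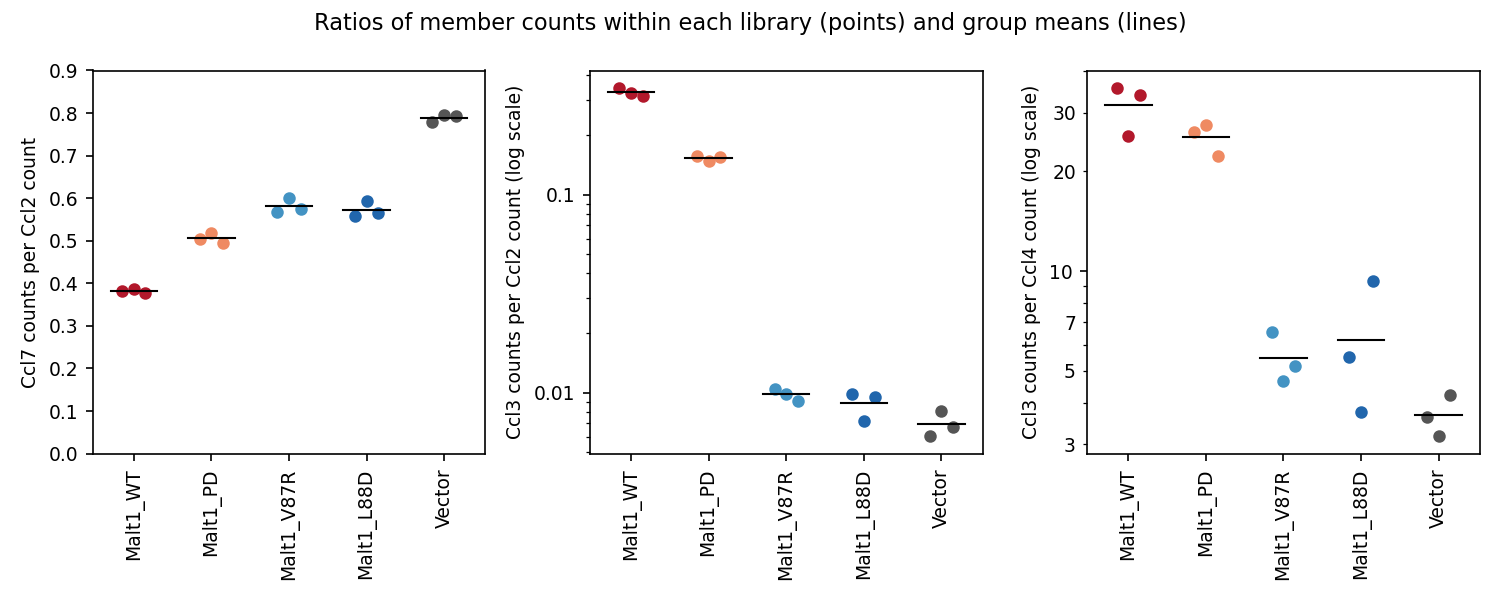
Ratios of member counts within each library, Ccl7 to Ccl2 on a linear axis from 0, and Ccl3 to Ccl2 and Ccl3 to Ccl4 on log axes, with points for libraries and lines for group means. The Ccl7 to Ccl2 ratio is lowest in Malt1_WT at 0.383 and highest in Vector at 0.789, and the Ccl3 to Ccl2 ratio runs the other way, at 0.329 with Malt1_WT and 0.00694 in Vector.

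Divided by the length of the principal transcript, levels can be set side by side between genes. In Malt1_WT the order was Ccl2 at 1336 CPM per kb, Ccl7 at 519, Ccl3 at 466, Ccl5 at 79.5 and Ccl4 at 17.4 CPM per kb. In Malt1_PD it was the same, at 1684, 863, 273, 26.7 and 12.6 CPM per kb. In the other groups Ccl5 came before Ccl3: Ccl3 was at 8.92 CPM per kb with Malt1_V87R and 7.93 with Malt1_L88D, against 3.87 in Vector, and Ccl5 at 19.3 and 19.8, against 17.6 CPM per kb in Vector. Each gap between neighbours in these orders was wider than the SDs of both genes.

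Over the 15 libraries the members formed a graded set of likeness, given as a description because the 15 points share 5 group means. Pearson's r of log2 CPM (prior count 2) was 0.99 for Ccl3 with Ccl4, 0.91 for Ccl2 with Ccl3, 0.85 for Ccl2 with Ccl7, 0.60 for Ccl2 with Ccl5 and 0.15 for Ccl5 with Ccl7. Among 9656 other tested genes of at least 5 CPM in their highest group, those most like Ccl3 were Gpt2, Cxcl1 and Tnc, at 0.998, 0.998 and 0.997. Those most like Ccl4 were Slc7a1, Slc38a1 and Ywhag, at 0.99 each, and those most like Ccl2 were Srpr, Glrx and P3h2, at 0.99 each. Ccl5 was most like Il33 and Tspan9, at 0.98 each, and Gys1, at 0.97. Ccl7 was most like Tmem119, at 0.97, and Nfe2l2 and Arl15, at 0.95 each.

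The members' neighbours on chromosome 11 did not all move with them. The 11 CC genes there form a block of 6 over 270.12 kb (Ccl2, Ccl7, Ccl11, Ccl12, Ccl8, Ccl1) and a block of 5 over 138.906 kb (Ccl5, Ccl9, Ccl6, Ccl3, Ccl4), 1220 kb apart. Of 18 other CC chemokine genes, on any chromosome, 6 were tested, and 7 had 0 counts in every library. Among those tested, Ccl8, Ccl9, Ccl11 and Ccl12 lie on chromosome 11, Ccl25 on chromosome 8 and Ccl27a on chromosome 4. Neither Ccl25 nor Ccl27a was called against Vector. Against Vector 2 of the 6 rose and 1 fell in Malt1_WT and likewise in Malt1_PD, close to the shares over all tested genes, which were 27.2% and 22.8% higher and 27.7% and 22% lower. In Malt1_V87R and in Malt1_L88D 2 rose and 0 fell, where 7.01% and 8.96% of tested genes were called higher and 4.7% and 8.43% lower. The median log2 fold change of the 6 was 0.65, 0.15, 0.10 and 0.62 with Malt1_WT, Malt1_PD, Malt1_V87R and Malt1_L88D.

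Ccl12, which in mouse also attracts monocytes through CCR2, averaged 2.51 ± 0.459 CPM with Malt1_WT, 1.15 ± 0.134 CPM with Malt1_PD, 0.949 ± 0.0409 CPM with Malt1_V87R and 0.754 ± 0.134 CPM with Malt1_L88D, against 0.171 ± 0.0680 CPM in Vector (SD, n = 3 each). It rose in all 4, by 3.82, 2.7, 2.42 and 2.08 on the log2 scale (largest adjusted p = 0.0011 in edgeR's test). The Vector libraries of Ccl12 lay between 0.0979 and 0.232 CPM, where 3 counts are 0.139 to 0.184 CPM. All 4 values therefore share a reference of few counts. Unlike Ccl2 and Ccl7, Ccl12 was lower in Malt1_PD than in Malt1_WT (log2 fold change -1.12, adjusted p = 0.0019 in edgeR's test). Ccl9, a CCR1 ligand, averaged 1.57 ± 0.111 CPM with Malt1_WT and 1.51 ± 0.201 CPM with Malt1_PD, against 0.254 ± 0.119 CPM in Vector (SD, n = 3 each). Its Vector libraries, at 0.184 to 0.392 CPM, also rest on few counts. It rose by 2.58 and 2.52 (adjusted p = 1.1e-05 and 2.0e-05), and its values in Malt1_V87R and Malt1_L88D, 0.34 and 1.23, did not pass. Without Malt1_L88D replicate 1 the Malt1_L88D value was called (1.55, adjusted p = 0.041).

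Ccl8 and Ccl11 behaved otherwise. Ccl8, a ligand of CCR8 in mouse, averaged 3.61 ± 0.542 CPM with Malt1_WT, 1.92 ± 0.326 CPM with Malt1_PD, 6.32 ± 1.47 CPM with Malt1_V87R and 7.18 ± 0.472 CPM with Malt1_L88D, against 2.43 ± 0.990 CPM in Vector (SD, n = 3 each). It rose by 1.33 with Malt1_V87R (adjusted p = 5.6e-05 in edgeR's test) and by 1.52 with Malt1_L88D (adjusted p = 7.4e-06), and did not pass in Malt1_WT (0.53, adjusted p = 0.060) or Malt1_PD (-0.37, adjusted p = 0.26). The Malt1_WT value was called with no filter on low counts (adjusted p = 0.026), with a replicate block (adjusted p = 0.042) and without Malt1_WT replicate 3, Vector replicate 1 or Vector replicate 3 (adjusted p = 0.022 to 0.042), and the Malt1_PD value without Vector replicate 2 (-0.63, adjusted p = 0.026). Set directly against Malt1_WT, Ccl8 was higher by 0.80 with Malt1_V87R (adjusted p = 0.0019) and by 0.99 with Malt1_L88D (adjusted p = 0.00025), the opposite direction to Ccl2, Ccl3, Ccl4 and Ccl5.

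Ccl11, the eosinophil attractant eotaxin, fell. It had 2 counts over the 3 Malt1_WT libraries and 13 over the Malt1_PD libraries, against 116 over the Vector libraries. Per TMM-corrected total the ratio to Vector was 0.0208 with Malt1_WT (95% counting interval 0.00249 to 0.0768) and 0.120 with Malt1_PD (0.0620 to 0.213), with adjusted p = 3.7e-09 and 2.3e-07 in edgeR's test. The fitted log2 fold change with Malt1_PD, -3.03, became -3.75 without Malt1_PD replicate 1. Ccl11 averaged 1.48 ± 0.272 CPM with Malt1_V87R and 1.34 ± 0.432 CPM with Malt1_L88D, against 1.99 ± 0.212 CPM in Vector (SD, n = 3 each), and neither passed (adjusted p = 0.38 and 0.17 in edgeR's test). Their ratios to Vector were 0.748 (95% counting interval 0.562 to 0.993) and 0.663 (0.486 to 0.898). Such intervals cover counting error only and not the spread between libraries. Ccl25, a thymic and gut chemokine, stayed between group means of 14.4 and 16.8 CPM and was called in none of the 10 comparisons. Ccl27a, a skin chemokine, was called lower in Malt1_V87R than in Malt1_WT (-1.20, adjusted p = 0.019 in edgeR's test), but it shares 45.0% of its 50-base words with other genes and its counts are uncertain. That call was lost without Malt1_V87R replicate 1 or 2 or Malt1_WT replicate 2 (adjusted p = 0.065, 0.066 and 0.056).

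**Figure D4:**
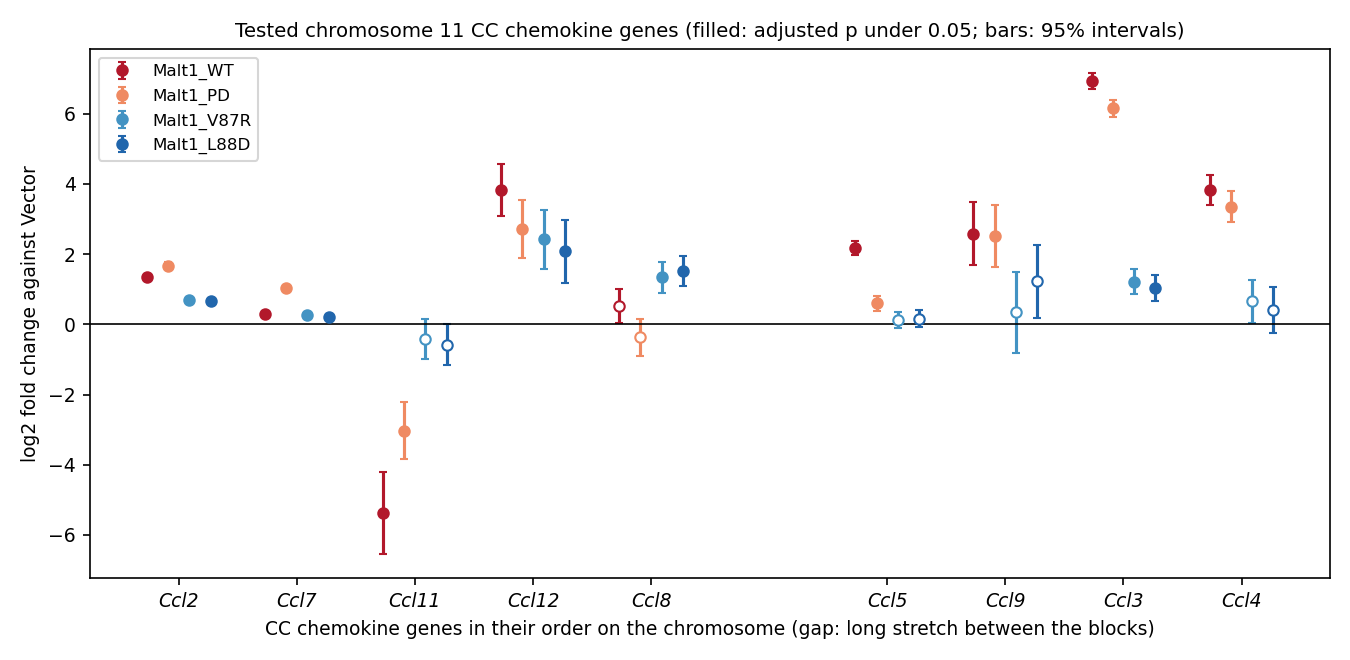
Log2 fold change against Vector, with 95% intervals, of the tested CC chemokine genes of chromosome 11 in their order along it, with a gap between the 2 blocks; filled points have an adjusted p under 0.05. Ccl11 lies below 0 with Malt1_WT and Malt1_PD between Ccl7 and Ccl12, which lie above, and its Malt1_WT point rests on 2 counts.

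Receptors for these ligands were low in the same cells. Of 15 listed CC receptor genes 5 were tested, Ccr1, Ccr7, Ccr10, Ccrl2 and Ackr2, and the highest library of Ccr2 was at 0.118 CPM, of Ccr3 at 0.0652 CPM and of Ccr6 at 0.0652 CPM. Against Vector 5 of the 5 rose in Malt1_WT, 3 in Malt1_PD and 1 each in Malt1_V87R and Malt1_L88D, and 0 fell, where 27.2%, 22.8%, 7.01% and 8.96% of all tested genes were called higher. Ccr1, which binds Ccl3 and Ccl5, averaged 2.51 ± 0.200 CPM with Malt1_WT and 1.87 ± 0.384 CPM with Malt1_PD, against 0.580 ± 0.246 CPM in Vector (SD, n = 3 each), rises of 2.06 and 1.63 (adjusted p = 8.8e-07 and 6.0e-05 in edgeR's test).

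Ccrl2, an atypical receptor that binds chemerin, was the most abundant of the 5. It averaged 41.5 ± 2.64 CPM with Malt1_WT, 15.8 ± 0.320 CPM with Malt1_PD, 4.94 ± 0.302 CPM with Malt1_V87R and 4.14 ± 1.21 CPM with Malt1_L88D, against 1.70 ± 0.163 CPM in Vector (SD, n = 3 each). It rose in all 4, by 4.59, 3.20, 1.52 and 1.30 (largest adjusted p = 8.1e-06). Ccr7, which guides cells to lymph nodes, rose by 1.40 with Malt1_WT and 1.08 with Malt1_PD (adjusted p = 2.1e-05 and 0.00079). Ccr10 rose by 0.84 with Malt1_WT (adjusted p = 0.0085) and had 0.14 with Malt1_PD (adjusted p = 0.73). Ackr2, a scavenger of CC chemokines, rose by 1.53 with Malt1_WT (adjusted p = 0.0080 in edgeR's test) and had 1.12 with Malt1_PD (adjusted p = 0.066), a value of 1.44 without Malt1_PD replicate 2 (adjusted p = 0.020) and of 0.53 without Malt1_PD replicate 1 (adjusted p = 0.49). Its Vector libraries, at 0.184 to 0.343 CPM, rest on few counts.

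Of 12 genes of NF-kB subunits and inhibitors 11 were tested, and 10 rose and 1 fell in Malt1_WT and likewise in Malt1_PD against Vector, while 4 rose and 0 fell in Malt1_V87R and 3 rose and 1 fell in Malt1_L88D. The shares of all tested genes called in either direction were 54.9%, 44.8%, 11.7% and 17.4%. Their median log2 fold change was 1.20 with Malt1_WT, 1.34 with Malt1_PD, 0.10 with Malt1_V87R and 0.08 with Malt1_L88D. Tnfaip3, which encodes the inhibitor A20, averaged 150 ± 3.05 CPM with Malt1_WT, 132 ± 3.99 CPM with Malt1_PD, 40.9 ± 3.44 CPM with Malt1_V87R and 36.8 ± 2.76 CPM with Malt1_L88D, against 28.8 ± 0.167 CPM in Vector (SD, n = 3 each), and rose in all 4. Nfkbia, the inhibitor of the RelA dimers, rose by 1.31 with Malt1_WT and 1.53 with Malt1_PD, and had 0.05 with Malt1_V87R and -0.06 with Malt1_L88D, which did not pass. Nfkb1, a subunit gene, rose by 1.20, 1.54, 0.20 and 0.16 with Malt1_WT, Malt1_PD, Malt1_V87R and Malt1_L88D. Between Malt1_PD and Malt1_WT, Nfkbia and Nfkb1 were higher by 0.22 and 0.34 (adjusted p = 0.00011 and 2.7e-08) and Tnfaip3 lower, at -0.18 (adjusted p = 0.0087), a call lost without Malt1_PD replicate 3 (adjusted p = 0.051).

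All 13 genes of RNA decay factors that act on cytokine mRNAs were tested. Against Vector 9 rose and 3 fell in Malt1_WT, 8 rose and 3 fell in Malt1_PD, 3 rose and 0 fell in Malt1_V87R, and 5 rose and 0 fell in Malt1_L88D. Over all tested genes 54.9%, 44.8%, 11.7% and 17.4% were called in these comparisons. Zc3h12a, which encodes the endonuclease Regnase-1 and is a known MALT1 substrate, averaged 171 ± 0.292 CPM with Malt1_WT and 176 ± 7.21 CPM with Malt1_PD, against 90.5 ± 0.705 CPM in Vector (SD, n = 3 each), rises of 0.92 and 0.96. With Malt1_V87R and Malt1_L88D it rose by 0.17 and 0.13 (adjusted p = 0.0076 and 0.036 in edgeR's test). The Malt1_L88D call was lost with no filter and from the 6 libraries compared alone. It was also lost without Malt1_L88D replicate 1 or 3 or any 1 Vector replicate (adjusted p up to 0.18). Zfp36l2, a protein that binds ATTTA-type elements, fell by 0.61 with Malt1_WT and by 0.46 with Malt1_PD. Zfp36, which encodes tristetraprolin, a protein that binds ATTTA-type elements and speeds the decay of the RNA, averaged 104 ± 20.8 CPM with Malt1_WT, 46.3 ± 2.13 CPM with Malt1_PD, 19.6 ± 0.056 CPM with Malt1_V87R and 21.1 ± 0.696 CPM with Malt1_L88D, against 12.9 ± 0.904 CPM in Vector (SD, n = 3 each). It rose 8.02-fold with Malt1_WT (adjusted p = 1.0e-11 in edgeR's test) and by 1.84, 0.61 and 0.71 on the log2 scale with Malt1_PD, Malt1_V87R and Malt1_L88D (adjusted p = 1.1e-08, 0.011 and 0.003). Its call in Malt1_V87R was lost with limma-voom (adjusted p = 0.064) and without Vector replicate 1 (adjusted p = 0.057). The median log2 fold change of the 13 was 0.60 with Malt1_WT, 0.41 with Malt1_PD, 0.17 with Malt1_V87R and 0.20 with Malt1_L88D.

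Marker genes of other cell types are given beside these results because leukocytes make the same chemokines. The 15 macrophage markers summed to 48.1 to 50.4 CPM with Malt1_WT, 54.0 to 58.9 CPM with Malt1_PD, 33.8 to 36.1 CPM with Malt1_V87R and 36.3 to 59.2 CPM with Malt1_L88D, against 35.7 to 38.7 CPM in Vector. Malt1_PD, the group with the highest Ccl2 and Ccl7, had the highest mean marker sum. The highest single library was Malt1_L88D replicate 2, at 59.2 CPM, where Ccl2 was at 649 CPM and Ccl7 at 384.5 CPM. A link between the markers and these genes was not tested. Of the 8 tested, 3 rose and 1 fell in Malt1_WT, where 54.9% of all tested genes were called, and 7 rose and 1 fell in Malt1_PD, where 44.8% were. None was called in Malt1_V87R, and 3 rose in Malt1_L88D, where 11.7% and 17.4% of all tested genes were called.

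The most abundant macrophage markers were Cd68, Lyz2 and Fcer1g. Cd68, a lysosomal protein, averaged 25.2 ± 1.53 CPM with Malt1_WT, 19.0 ± 1.13 CPM with Malt1_PD, 11.4 ± 0.671 CPM with Malt1_V87R and 14.6 ± 1.35 CPM with Malt1_L88D, against 12 ± 0.516 CPM in Vector (SD, n = 3 each). Lyz2, a lysozyme, averaged 4.63 ± 2.26, 14.3 ± 1.38, 5.0 ± 1.54 and 13.7 ± 7.34 CPM in the same order of Malt1 groups, against 5.66 ± 0.0644 CPM in Vector. Ctss, a lysosomal protease, averaged 1.30 ± 0.0768 CPM with Malt1_PD and 1.24 ± 0.931 CPM with Malt1_L88D, against 0.410 ± 0.0692 CPM in Vector. Fcer1g fell in Malt1_WT and Malt1_PD. None of the 15 was at 0 in every library, with Ptprc at most 0.295 CPM and Adgre1 at most 1.41 CPM.

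Dendritic cell and neutrophil markers had group means in the same order as those of Ccl3. The 10 genes summed to 87 ± 1.63 CPM with Malt1_WT, 67.7 ± 5.61 CPM with Malt1_PD, 54.7 ± 4.35 CPM with Malt1_V87R and 50.3 ± 3.34 CPM with Malt1_L88D, against 39.3 ± 1.32 CPM in Vector (SD, n = 3 each). Most of the sum was S100a8, a calcium-binding protein abundant in neutrophils, at 63.1 ± 3.27 CPM with Malt1_WT and 43.1 ± 3.90 CPM with Malt1_PD, against 22.2 ± 2.68 CPM in Vector. Of the 6 tested, 5 rose and 1 fell in Malt1_WT and likewise in Malt1_PD, where 27.2% and 22.8% of all tested genes were called higher. In Malt1_V87R 2 rose and in Malt1_L88D 1 rose, where 7.01% and 8.96% were called higher. In either direction the shares were 54.9%, 44.8%, 11.7% and 17.4% with Malt1_WT, Malt1_PD, Malt1_V87R and Malt1_L88D. The one that fell was Ly6g, a neutrophil surface protein, and Siglech was at 0 in every library.

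The 10 fibroblast markers summed to 457 ± 10.8 CPM with Malt1_PD, and the other groups averaged between 393 and 419 CPM, with Dpt at 0 in every library. Of the 8 tested, 2 rose and 4 fell in Malt1_WT, 1 rose and 1 fell in Malt1_PD, 0 were called in Malt1_V87R and 2 fell in Malt1_L88D. The shares of all tested genes called against Vector were 54.9%, 44.8%, 11.7% and 17.4% in the same order. The 9 endothelial markers summed to 33.9 CPM with Malt1_WT, 31.6 CPM with Malt1_PD, 24.6 CPM with Malt1_V87R and 24.8 CPM with Malt1_L88D, against 28.4 CPM in Vector. Of the 5 tested, 3 rose in Malt1_WT, 2 rose and 1 fell in Malt1_PD, and 1 fell in each of Malt1_V87R and Malt1_L88D. Of 2 epithelial markers tested, 2 fell in each of Malt1_WT, Malt1_V87R and Malt1_L88D, and 1 fell in Malt1_PD. The 10 epithelial markers summed to 96.9 CPM with Malt1_WT on average, against 128 CPM in Vector. The 1 T and NK cell marker tested rose in Malt1_WT and was not called in the other Malt1 groups. The 13 T and NK cell markers summed to 4.01 CPM with Malt1_WT, against 2.11 CPM in Vector. The same shares over all tested genes apply to these counts. The part of these marker genes in the members' levels was not tested, and in such bulk samples more cells of a type and more RNA per cell cannot be told apart.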

How the data were processed

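RNA was sequenced from 15 libraries of E0771 cells. Per the labels, the libraries came from total RNA with a directional NEBNext Ultra II kit and were sequenced from both ends. The values are raw counts for each gene symbol, as the authors deposited them; per the submitters' processing notes, Trim Galore 0.6.0, STAR 2.7.3a and featureCounts 1.6.3 were used with GRCm38.p6. Neither the annotation release nor the strand setting nor the treatment of multimapping reads is given in the sources used here. Of 55571 rows, 22982 were 0 in every library and 55418 matched a GENCODE M21 symbol.

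The test on counts was edgeR 4.0.16 in R 4.3.3 (filterByExpr, TMM, robust quasi-likelihood fit of 15 libraries, 1 mean per group). This left 14571 genes and gave 10 two-sided comparisons, with Benjamini-Hochberg adjustment over all genes and calls at an adjusted p under 0.05. The common biological coefficient of variation was 4.61%. No pair of replicates agreed within sampling noise (chi-square per degree of freedom 1.94 to 8.81). The largest values were 8.81 for Malt1_PD replicates 1 and 2, 7.03 for Vector replicates 1 and 2, and 6.11 for Malt1_PD replicates 2 and 3. Malt1_PD replicates 1 and 3 were at 2.57. Intervals are at 95%. Figures were drawn with matplotlib.

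Alternatives were RLE and upper-quartile scaling, no filter, a replicate block, limma-voom (3.58.1), DESeq2 1.42.0, the 6 libraries compared alone, and leaving out each replicate. The members, lists (other CC chemokines, CC receptors, NF-kB subunits and inhibitors, RNA decay factors, and markers of macrophages, dendritic cells and neutrophils, T and NK cells, fibroblasts, endothelial and epithelial cells) and motifs were chosen with earlier results of these data known. The ATTTA element was searched after the longer forms gave no match. Named genes were all members, every tested other CC chemokine and receptor, the 3 genes with the smallest adjusted p in Malt1_WT against Vector from the NF-kB and RNA decay lists, and the 3 genes most like each member.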

Additional observations from a re-analysis of the deposited data

How the results depend on the processing

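Of the 5 members' log2 fold changes under the alternatives, 642 kept their direction and their side of the threshold, 3 lost a call, 4 gained one and 1 changed sign. The sign change was Ccl2 in Malt1_V87R against Malt1_L88D, -0.0078 without Malt1_L88D replicate 2, within a range of -0.0078 to 0.056 with 1 replicate left out. The 3 losses were all of Ccl4 in Malt1_PD against Malt1_WT, and the 4 gains of Ccl7 in Malt1_L88D against Malt1_WT; the cause was not tested. The number of members called changed in no other comparison.

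The other named genes were put through the same alternatives after the data had been seen: 926 of their log2 fold changes kept direction and call, 13 lost a call, 9 gained one and 22 changed sign. No value that changed sign was called in the main comparison. With limma-voom, against Vector, Ccr1 with Malt1_V87R became 0.058 and Ccr10 became -0.060 with Malt1_V87R and -0.025 with Malt1_L88D. With 1 replicate left out the Malt1_V87R values ran from -0.28 to 0.24 for Ccr1, -0.27 to 0.30 for Ccr10 and -0.23 to 0.80 for Ccl9. Those of Malt1_L88D ran from -0.038 to 0.064 for Ccl25, -0.19 to 0.21 for Ccr7, -0.18 to 0.20 for Ccr10, -0.60 to 0.13 for Ackr2 and -0.47 to 0.33 for Ccl27a, and that of Ccl25 with Malt1_WT from -0.0055 to 0.17. The cause was not tested.

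Counts over all genes moved by over 1.5 times in 3 comparisons. Between Malt1_V87R and Malt1_L88D the count of 0 became 5 with no filter and 25 from the 6 libraries compared alone, and was 0 to 2 with 1 replicate left out. With 1 replicate left out it was 1130 to 1924 in Malt1_V87R and 1545 to 2854 in Malt1_L88D against Vector. Where a group has 2 libraries left, fewer samples enter the fit.

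The deviations of same-numbered libraries of different groups correlated at -0.05 to 0.15, and 0 of 10 group pairs had every correlation over 0.1, so the numbers were not taken to pair the libraries. As a hint from the data and not the design, 10 of 15 libraries matched best with their own number. A replicate block raised the count of called genes in all 4 comparisons with Vector: 8284 genes were called with Malt1_WT, 6856 with Malt1_PD, 2146 with Malt1_V87R and 3032 with Malt1_L88D. Ccl4 outside Malt1_WT and Malt1_PD rests on 12 to 31 counts per library, and Ccl20 could not be tested at this depth.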
